A study of Mus musculus with 10 samples.

Results

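Cullin RING ligases are enzymes that attach ubiquitin to other proteins. The genes described here are Rnf7 and Rbx1, which encode the RING subunits of these ligases, and the cullin genes Cul1, Cul2, Cul3, Cul4a, Cul4b, Cul5, Cul7 and Cul9. These 10 genes were taken from 19938 measured genes, each represented by its brightest probe set among those annotated to a single gene symbol. Rnf7 was selected on its measured strain difference, one of the most negative, and the other genes were chosen by family with it, so the Rnf7 difference is given here as a description and without a test. Its place was taken in an order of 681 genes with a negative difference and strains that did not overlap. The test described below served only as a filter for that order. Rnf7 ranked 12 from the most negative, between Calb1 (-1.76) and Slc6a17 (-1.71). The rank restates how Rnf7 was selected and adds no support.

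The samples were pancreatic islets, the clusters of endocrine cells that secrete insulin and glucagon, from male mice of 2 inbred strains. The NZO/Hl strain is obese and prone to diabetes, and C3HeB/FeJ, called C3H here, was the other strain. All mice were 6 weeks old and had eaten a high-fat diet with 45% of its energy as fat since weaning at day 21, and all islets rested overnight in medium with 10 mM glucose. There were 10 arrays, 5 per strain, with values on a log2 scale, where 1 unit is a doubling. The sample titles give 2 animal numbers on all arrays but NZO replicate 4, with 1, and NZO replicate 5, with a span of numbers, and do not state whether animals were pooled. The p-values therefore measure the spread between these samples, which may in part be technical.

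A cullin is a long scaffold. Its C-terminal end holds a RING protein, which recruits the ubiquitin-charged E2 enzyme, and its N-terminal end holds an adaptor and one of many substrate receptors. Rbx1 is the RING partner of most cullins, while Rnf7, also called Rbx2 or SAG, pairs with Cul5. The small protein NEDD8 is attached to the cullin to switch the ligase on, the COP9 signalosome removes it, and CAND proteins exchange the receptors. In beta cells, as in other cells, these ligases set the lifetime of cell cycle regulators, transcription factors and signalling proteins.

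The islet hormone genes Ins2, Iapp, Gcg, Sst and Ppy, which define the labelled tissue, were each brighter than at least 99.6% of genes. In NZO, Sst differed by -0.75 (SE 0.11, limma adjusted p = 0.000379) and Ppy by -0.41 (SE 0.08, limma adjusted p = 0.00465), without overlap. Ins2, Iapp and Gcg did not pass. Arrays of a strain correlated at 0.983 to 0.997 over all genes. Markers of exocrine acinar cells differed between the strains by the test described below. Of 29 measured markers, 25 were higher in NZO and none was lower. Their mean log2 value lay between 7.82 and 8.60 in C3H. In NZO it lay between 9.40 and 9.91 on replicates 1 to 3 and reached 11.21 and 11.08 on replicates 4 and 5. Of the other marker lists, 6 of 15 endocrine markers were lower. Higher were 6 of 15 macrophage, 3 of 8 duct, 2 of 14 stellate and 3 of 14 endothelial markers, with 1 macrophage marker lower. Among all genes, 5.47% were higher and 4.61% lower by the same test. In whole islets, fewer cells of a type and less RNA per cell cannot be told apart.

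The upstream sequences of both RING genes are given first, as Rnf7 was chosen for its strain difference and Rbx1 did not pass the test. They are the 250 bases before the annotated start, 5′ to 3′ on the strand of the gene, from RefSeq in the build GRCm38.p6, which is the C57BL/6J reference and not the sequence of either strain. Rnf7 lies at chr9:96478676-96478925 on the minus strand and Rbx1 at chr15:81466066-81466315 on the plus strand. Capitals mark matches, on either strand, to TGACGTCA (the cyclic AMP response element), CCAAT (the CCAAT box), CACGTG (an E-box) and GGGCGG (the GC box).
Rnf7: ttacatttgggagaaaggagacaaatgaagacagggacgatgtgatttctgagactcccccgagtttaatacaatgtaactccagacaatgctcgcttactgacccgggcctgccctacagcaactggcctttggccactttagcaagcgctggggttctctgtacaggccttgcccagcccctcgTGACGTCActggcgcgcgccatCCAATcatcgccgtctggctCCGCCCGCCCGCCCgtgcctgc
Rbx1: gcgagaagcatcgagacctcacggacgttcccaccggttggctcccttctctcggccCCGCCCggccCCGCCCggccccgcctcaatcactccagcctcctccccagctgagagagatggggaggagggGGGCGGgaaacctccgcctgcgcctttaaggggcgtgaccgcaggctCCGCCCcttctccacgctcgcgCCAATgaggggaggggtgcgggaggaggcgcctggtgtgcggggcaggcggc
The Rnf7 stretch holds 1 TGACGTCA, 57 to 64 bases before the start, 1 CCAAT, and a run of 3 overlapping GC boxes that ends 9 bases before the start. The Rbx1 stretch holds 1 CCAAT and 4 GC boxes. Of 32851 promoter stretches of the same length, 1.55% hold TGACGTCA, 33.8% CCAAT, 32.7% GGGCGG and 6.02% CACGTG. Of 11 stretches listed for 9 of the 10 genes, 1 holds TGACGTCA, that of Rnf7. The GC content was 58.0% for Rnf7 and 72.4% for Rbx1, with 16 and 24 CG pairs, where the median stretch had 52.4% and 6 CG pairs. These matches describe the letters and do not show that a factor binds there.

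Rnf7 transcripts were about 3-fold less abundant in NZO islets by the probe set used. On the C3H arrays, replicates 1 to 5, Rnf7 had log2 levels of 9.32, 9.40, 9.37, 9.11 and 9.29. On the NZO arrays its levels were 7.62, 7.45, 7.32, 7.75 and 7.74. Every NZO array was below every C3H array, with 1.37 log2 units between the closest arrays. The means were 9.30 ± 0.11 for C3H and 7.58 ± 0.19 for NZO (SD over 5 arrays per strain), a difference of -1.73 (SE 0.10), or 3.31-fold. The NZO levels still lay above the median probe set of every array (6.93 to 7.05). The difference was -1.77 to -1.66 with any single array left out.

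**Figure D1:**
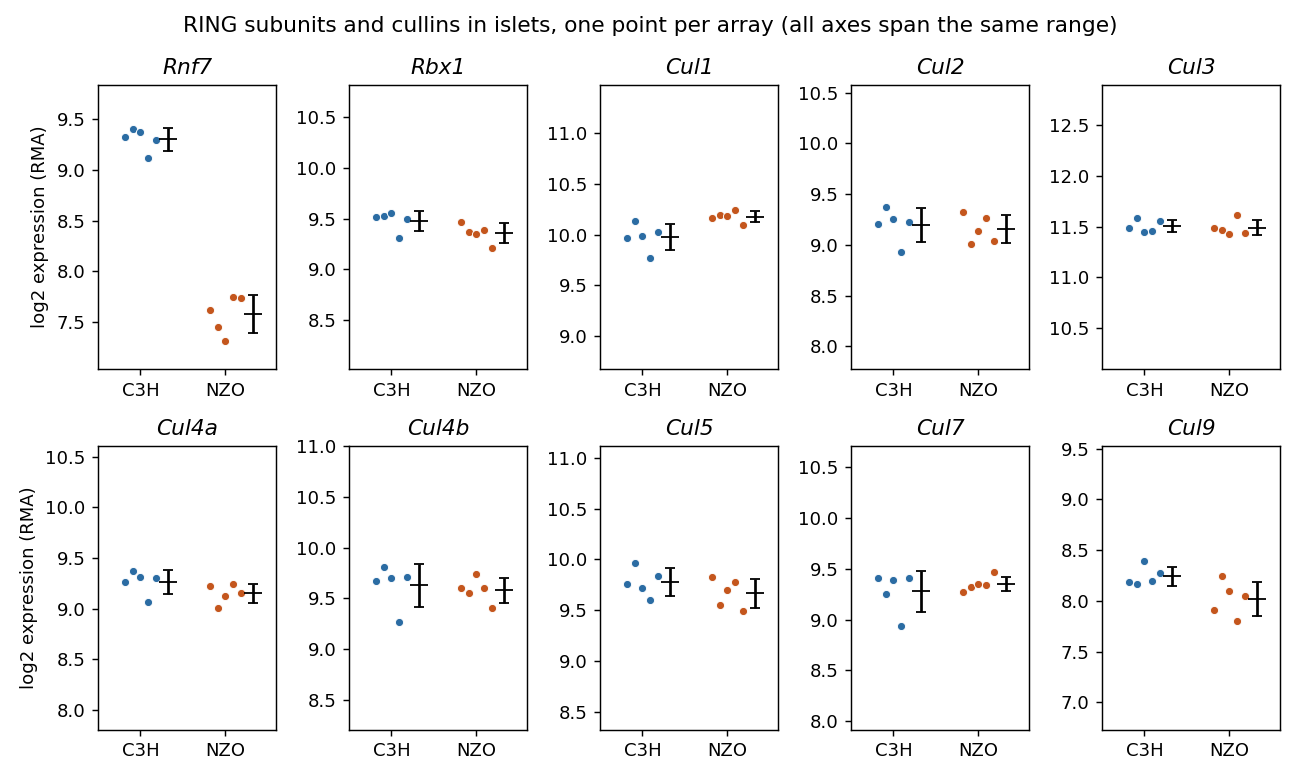
Log2 expression (vertical axes, all spanning the same range) of the 10 genes in C3H (blue) and NZO (orange) islets, 1 point per array with mean and SD beside the points. The strains are apart in Rnf7 (9.11 to 9.40 against 7.32 to 7.75) and overlap in the other 9 genes.

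Within NZO, Rnf7 was highest on the 2 arrays with the highest acinar marker level, replicates 4 and 5 (7.75 and 7.74), followed by replicate 1 (7.62). Without those 2 arrays the Rnf7 difference was -1.84 (SE 0.10). With the acinar level as a covariate beside strain it was -2.03 (SE 0.19). The acinar level did not overlap between the strains (7.82 to 8.60 in C3H, 9.40 to 11.21 in NZO), so that fit cannot separate it from strain. The part of acinar content in the Rnf7 difference was not tested.

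The Rnf7 difference was seen in 1 of 3 probe sets that name the gene. The other 2, which the choice of members left out because they carry 2 symbols, are annotated to Rnf7 and to Gm35144, a pseudogene on chromosome 13, and all 3 transcript accessions listed for the probe set used are listed for them too. Probe set 10344719 read 7.11, 7.10, 7.05, 7.35 and 7.14 in C3H and 6.998, 7.32, 7.09, 7.03 and 7.01 in NZO. Its strain difference was -0.058, with overlapping strains. Probe set 10353008 read 7.25, 7.28, 7.22, 7.46 and 7.35 in C3H and 7.19, 7.51, 7.27, 7.25 and 7.21 in NZO, a difference of -0.025 with overlapping strains. The strain difference therefore depends on which probe set stands for Rnf7. C3H replicate 4, the lowest C3H array in the probe set used, was the highest C3H array in both others. Over all genes that array was the lowest in C3H for 43.4% and the highest for 36.9%. Where the probes of each set lie in the transcript was not analysed here, and the part that the pseudogene has in these readings was not tested.

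**Figure D2:**
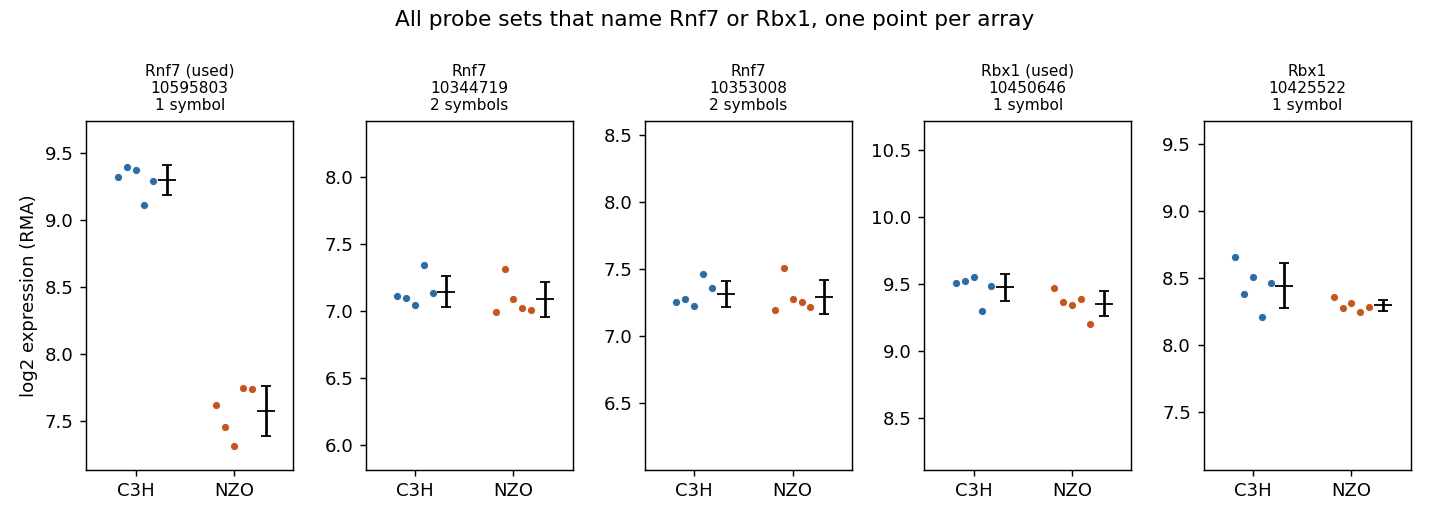
Log2 expression (vertical axes, all spanning the same range) in every probe set that names Rnf7 or Rbx1, 1 point per array with mean and SD, C3H in blue and NZO in orange. The strain difference is -1.73 in the Rnf7 probe set used, -0.058 and -0.025 in those that also name Gm35144, and -0.12 and -0.15 in those of Rbx1.

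Rbx1, the RING partner of most cullins, did not pass the test. Its levels were 9.51, 9.52, 9.56, 9.30 and 9.49 in C3H and 9.47, 9.37, 9.35, 9.39 and 9.21 in NZO, so the strains overlapped. The difference was -0.12 (SE 0.08, limma adjusted p = 0.423), with a 95% interval of -0.29 to 0.04. A dimmer probe set of Rbx1 gave -0.15, also with overlapping strains. Rnf7 was chosen for the difference of the probe set used, so the interval of Rbx1 is not compared with it. The interval held the differences of the other Rnf7 probe sets, -0.058 and -0.025.

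None of the 9 genes beside Rnf7 passed in limma at an adjusted p below 0.05, while 10.1% of all genes did. At an unadjusted p below 0.05, Cul1 was higher and Cul9 lower. The values of the strains overlapped in all 9, while they did not overlap in 9.14% of all genes, 4.18% with NZO lower. The median difference of the 9 was -0.05, against -0.02 over all genes, and their differences ran from -0.22 to 0.20. Since the members were assembled around this same comparison, nothing is read from these counts about the family.

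Cul5, the scaffold that Rnf7 serves, read 9.76, 9.96, 9.72, 9.60 and 9.84 in C3H and 9.83, 9.55, 9.70, 9.77 and 9.49 in NZO. High and low arrays were found in both strains. Its difference was -0.11 (SE 0.09, limma adjusted p = 0.578), with a 95% interval of -0.30 to 0.08.

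Cul1, the scaffold of the SCF ligases that use F-box receptors, had the largest positive difference of the set. It read 9.97, 10.13, 9.99, 9.77 and 10.02 in C3H and 10.16, 10.20, 10.18, 10.24 and 10.09 in NZO. Only C3H replicate 2 reached into the NZO range. The difference was 0.20 (SE 0.08, limma adjusted p = 0.140), with an unadjusted 95% interval of 0.03 to 0.37. Cul9, a large cytoplasmic cullin also known as Parc, had the most negative difference after Rnf7. It read 8.19, 8.17, 8.39, 8.19 and 8.27 in C3H and 7.91, 8.24, 8.09, 7.80 and 8.04 in NZO. NZO replicate 2 lay inside the C3H range and the other NZO arrays lay below it. The difference was -0.22 (SE 0.09, limma adjusted p = 0.148), with an unadjusted 95% interval of -0.42 to -0.03. Without NZO replicate 2, Cul9 passed at -0.28 (limma adjusted p = 0.0495), and with the acinar level as a covariate its difference was -0.02 (SE 0.18).

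The remaining scaffolds did not pass, and their strains overlapped. Cul3, which carries BTB receptors such as Keap1, was 11.51 ± 0.06 for C3H and 11.49 ± 0.07 for NZO (SD over 5 arrays per strain). Its difference was -0.02, with a 95% interval of -0.17 to 0.13, and its spread within strains (pooled SD 0.07) was among the smallest, with 2.6% of genes below it. Cul2, the scaffold of the von Hippel-Lindau ligase, ran from 8.93 to 9.38 in C3H and from 9.01 to 9.32 in NZO, a difference of -0.04 (95% interval -0.25 to 0.16). Cul4a and Cul4b are close paralogs that use the Ddb1 adaptor. Cul4a was 9.06 to 9.37 and 9.01 to 9.25, a difference of -0.11 (-0.28 to 0.06), and Cul4b was 9.26 to 9.81 and 9.41 to 9.74, a difference of -0.05 (-0.27 to 0.17). Cul7, a scaffold that uses the single F-box protein Fbxw8, was 8.94 to 9.41 and 9.27 to 9.47, a difference of 0.07 (-0.13 to 0.27). All 5 genes had a limma adjusted p between 0.479 and 0.927, and none of them passed under any alternative tried.

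**Figure D3:**
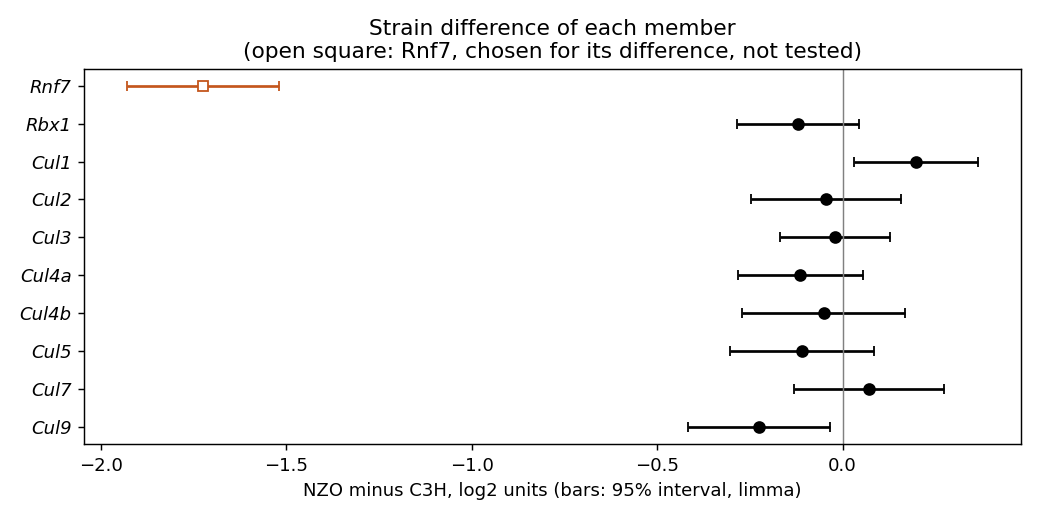
NZO minus C3H in log2 units (horizontal axis) with the 95% interval of the limma fit for each of the 10 genes. Rnf7 (open square, chosen for its difference and not tested) lies at -1.73, and the other genes lie between -0.22 and 0.20.

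C3H replicate 4 was the lowest C3H array in 8 of the 10 genes, all but Cul3 and Cul9, and it was the lowest C3H array for 43.4% of all genes. C3H replicate 2 was the highest C3H array in 7 of the 10, which were Rnf7 and all cullins but Cul7 and Cul9, and it was the highest for 22.3% of all genes. Leaving out C3H replicate 4 gave no call among the 9 genes.

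The genes with an array profile most like that of Rnf7 were sought over the 10 arrays, by the root mean square difference of values centred on each gene's mean. The nearest were 4933431E20Rik (0.155), the heparan sulfate enzyme gene Ndst4 (0.187) and the zinc finger gene Zfp605 (0.227), where the median gene was 0.880 away. Their strain differences were -1.76, -1.64 and -1.54. Among the members the nearest was Cul9 (0.782) and the farthest Cul1 (0.971). Both strains enter this distance, so it largely repeats the strain difference by which Rnf7 was chosen. Nothing further is read from the order.

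Rnf7 lies on chromosome 9, and its tested neighbours there had smaller differences. Of the 5 tested genes on either side, 1 was lower and 1 higher in NZO, where 4.61% of all genes were lower and 5.47% higher. Atp1b3, which encodes a sodium pump subunit and precedes Rnf7, differed by 0.02 (SE 0.11). Rasa2, a Ras GTPase-activating protein gene that follows it, was 9.37, 9.63, 9.56, 9.07 and 9.41 in C3H and 9.10, 8.76, 9.08, 9.25 and 8.86 in NZO. These ranges overlapped, and the difference was -0.40 (SE 0.12, limma adjusted p = 0.0429). The call of Rasa2 held in 2 of 10 fits with an array left out, those without C3H replicate 4 or NZO replicate 4, and its adjusted p reached 0.114 without C3H replicate 3. Pxylp1, a xylose phosphatase gene of proteoglycan synthesis, rose by 0.67 (SE 0.15, limma adjusted p = 0.00913), with no overlap. The difference of Atr was -0.05, of Xrn1 0.06, of Gk5 0.16, of Tfdp2 -0.15, of Zbtb38 -0.14, of E030011O05Rik -0.04 and of Spsb4 0.002, and none of these passed.

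**Figure D4:**
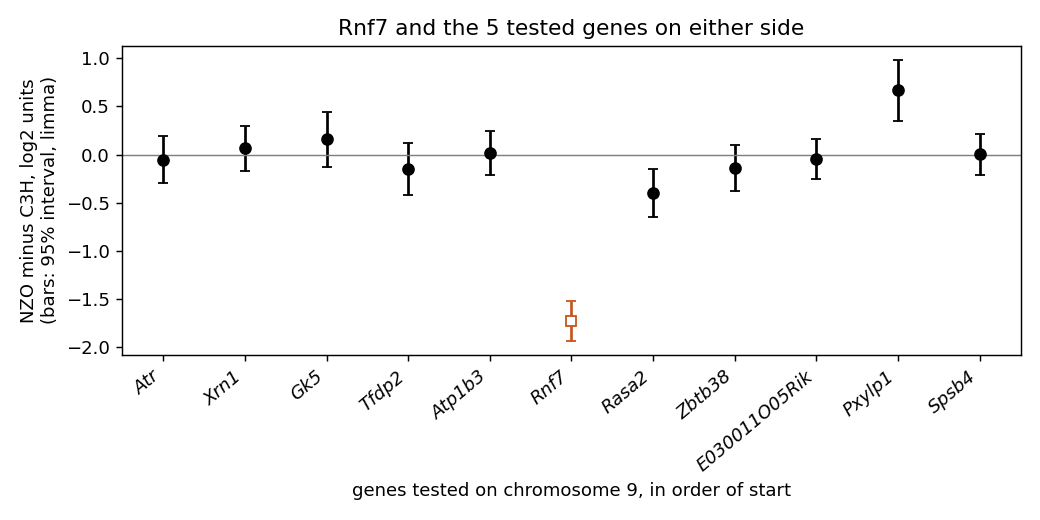
NZO minus C3H in log2 units (vertical axis) with the 95% interval of the limma fit, for Rnf7 (open square, not tested) and the 5 tested genes on either side in chromosome order. The neighbours lie between -0.40 (Rasa2) and 0.67 (Pxylp1), and Rnf7 lies at -1.73.

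The machinery that serves the cullins showed no called gene in its core. None of 9 measured genes of NEDD8 conjugation, 14 genes of the COP9 signalosome and exchange factors, 4 adaptor genes and 9 genes of E2 enzymes and ARIH ligases passed in limma, while 10.1% of all genes did. At an unadjusted p below 0.05, these lists held 1, 3, 1 and 0 lower genes and no higher gene, against 2103 lower and 2247 higher of all 19938 genes. Those 5 genes, named after their values were seen, were Dcun1d4 (-0.28), Senp8 (-0.37), Cops7a (-0.22), Cand2 (-0.20) and Eloc (-0.20). Dcun1d4 encodes a factor that aids NEDD8 transfer, Senp8 a protease of NEDD8, Cops7a a signalosome subunit, and Cand2 an exchange factor. The list medians were -0.01 for NEDD8 conjugation, -0.11 for the signalosome and exchange factors, -0.03 for adaptors and 0.03 for E2 and ARIH enzymes, against -0.02 over all genes.

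The direct partners of Rnf7 and Cul5 did not pass. Eloc, the elongin C adaptor that joins Cul5 and Cul2 to their receptors, read 9.77, 9.77, 9.67, 9.64 and 9.71 in C3H and 9.58, 9.43, 9.53, 9.60 and 9.41 in NZO. The strains did not overlap, with 0.04 log2 units between the closest arrays. The difference was -0.20 (SE 0.07, limma adjusted p = 0.0910). Its partner Elob, elongin B, differed by 0.02 (95% interval -0.18 to 0.23). Ube2f, the E2 enzyme that carries NEDD8 to Cul5 together with Rnf7, differed by -0.005 (-0.16 to 0.15), and Arih2, a ligase that works with NEDD8-bound Cul5, by 0.02 (-0.14 to 0.19). Arih1, the counterpart for the ligases built on Rbx1, differed by 0.02 (-0.15 to 0.18), and Ube2m was not analysed here. Nedd8 itself was 9.54 ± 0.10 for C3H and 9.53 ± 0.17 for NZO (SD over 5 arrays per strain).

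All calls in the pathway lists lay among substrate receptors, apart from the Cul7 partner Ccdc8. Receptors were also most of the measured pathway genes, with lists of 64, 61, 40, 24 and 11. The lists without a call held 4 to 16 genes each, so nothing is read from where the calls lay. Over all lists of the pathway, 15 of 254 measured genes were higher and 12 lower in NZO by limma, which is 10.6% in either direction, beside 5.47% higher and 4.61% lower among all genes. Of these 27 genes, 17 passed with each single array left out in turn, and 14 passed without NZO replicates 4 and 5. With the acinar level as a covariate 4 pathway genes passed, and 3 of them, Asb13, Kctd13 and Fbxo2, were among the 27. The acinar markers above moved with strain in these same arrays, and their part in the other calls was not tested beyond this covariate.

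Receptors with a SOCS box, which dock on Cul5 and so work with Rnf7, had 2 genes higher and 3 lower of 40. That is 12.5% called, against 10.1% of all genes, with a list median of -0.03. Asb13, an ankyrin repeat receptor of this group, read 9.96, 9.96, 10.02, 9.96 and 9.97 in C3H and 8.84, 8.78, 8.76, 8.74 and 8.77 in NZO. The arrays of each strain lay close together and more than a log2 unit apart from the other strain. The difference was -1.20 (SE 0.06, 2.29-fold, limma adjusted p = 3.62e-08), and it was -1.15 with the acinar level as a covariate. Rab40b, a small GTPase with a SOCS box, fell by 0.35 (SE 0.08, limma adjusted p = 0.0118). Socs3, the feedback inhibitor of cytokine signalling, rose by 0.39 (SE 0.10, limma adjusted p = 0.0173), and its relative Socs5 fell by 0.35 (SE 0.09, limma adjusted p = 0.0177). Socs3 lost its call without C3H replicate 1 (limma adjusted p = 0.0540) or NZO replicate 5 (0.0522), and Socs5 without C3H replicate 2 (0.0530), 3 (0.0542) or 5 (0.0516). Without NZO replicates 4 and 5, Rab40b (limma adjusted p = 0.0689), Socs3 (0.105) and Socs5 (0.0530) did not pass.

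F-box receptors, which dock on Cul1 through Skp1, had 4 genes higher and 3 lower of 64. The called share was 10.9%, against 10.1% of all genes, and the list median was -0.02. Fbxo2, a receptor for proteins carrying N-linked sugars, read 7.70, 7.58, 7.53, 7.38 and 7.69 in C3H and 9.20, 9.16, 8.80, 8.33 and 8.58 in NZO. The strains did not overlap, and the NZO arrays spread more widely than the C3H arrays. The difference was 1.24 (SE 0.15, 2.36-fold, limma adjusted p = 7.84e-05). It was 1.48 without NZO replicates 4 and 5, its lowest NZO arrays, and 1.99 with the acinar level as a covariate. Fbxo44 rose by 0.52 (SE 0.09, limma adjusted p = 0.00244), Fbxo32, known as atrogin-1, by 0.42 (SE 0.08, limma adjusted p = 0.00277), and Fbxw7, the receptor for cyclin E and Myc, by 0.62 (SE 0.12, limma adjusted p = 0.00335). All 4 passed with each single array left out and without NZO replicates 4 and 5. With the acinar level as a covariate, Fbxo44 (0.69, limma adjusted p = 0.174), Fbxo32 (0.20, 0.999) and Fbxw7 (0.60, 0.578) did not pass.

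BTB receptors, which dock on Cul3 directly, had 7 genes higher and 4 lower of 61, with a list median of -0.002. Kctd13, an adaptor that brings the GTPase RhoA to Cul3, read 8.10, 8.14, 8.11, 8.02 and 8.06 in C3H and 9.33, 9.25, 9.03, 9.06 and 9.21 in NZO. The strains did not overlap. The difference was 1.09 (SE 0.08, 2.13-fold, limma adjusted p = 5.08e-07). Klhl7, a kelch receptor, read 10.80, 10.92, 10.81, 10.71 and 10.81 in C3H and 10.00, 9.84, 9.83, 9.89 and 9.55 in NZO. Its difference was -0.99 (SE 0.09, limma adjusted p = 4.33e-06). Btbd9 fell by 0.67 (SE 0.07, limma adjusted p = 3.47e-05) and Klhl29 rose by 0.73 (SE 0.11, limma adjusted p = 0.000554). Keap1, the receptor of the oxidative stress factor Nrf2, differed by -0.08 (SE 0.08) and did not pass.

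Of 11 receptors of Cul2, Appbp2 was higher, by 0.58 (SE 0.10, limma adjusted p = 0.00188), and Vhl differed by 0.03 (SE 0.07). Called were 9.09% of the Cul2 receptors and 8.33% of the Cul4 receptors, against 10.1% of all genes. Of 24 receptors of the Cul4 ligases, Dcaf5 rose by 0.45 (SE 0.07, limma adjusted p = 0.000653) and Dcaf7 fell by 0.30 (SE 0.09, limma adjusted p = 0.0412). The Dcaf7 call held in 2 of 10 fits with an array left out, those without C3H replicate 4 or NZO replicate 2, and its adjusted p reached 0.114 without C3H replicate 3 or NZO replicate 4. Of 3 partners of Cul7, Ccdc8, a member of the 3M complex, was lower by limma, where 4.61% of all genes were lower. Ccdc8 fell by 0.57 (SE 0.12, limma adjusted p = 0.00642), and its adjusted p was 0.0663 without NZO replicates 4 and 5.

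The anaphase-promoting complex has a cullin-like and a RING subunit of its own. Its genes are counted among the 254 pathway genes above, so it is not a separate comparison group. None of its 16 measured genes passed in limma, against 10.1% of all genes, and 1 was higher and 2 lower at an unadjusted p below 0.05, where 2247 of all 19938 genes were higher and 2103 lower. Its cullin-like subunit Anapc2 differed by 0.04 (SE 0.08) and its RING subunit Anapc11 by -0.06 (SE 0.08).

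**Figure D5:**
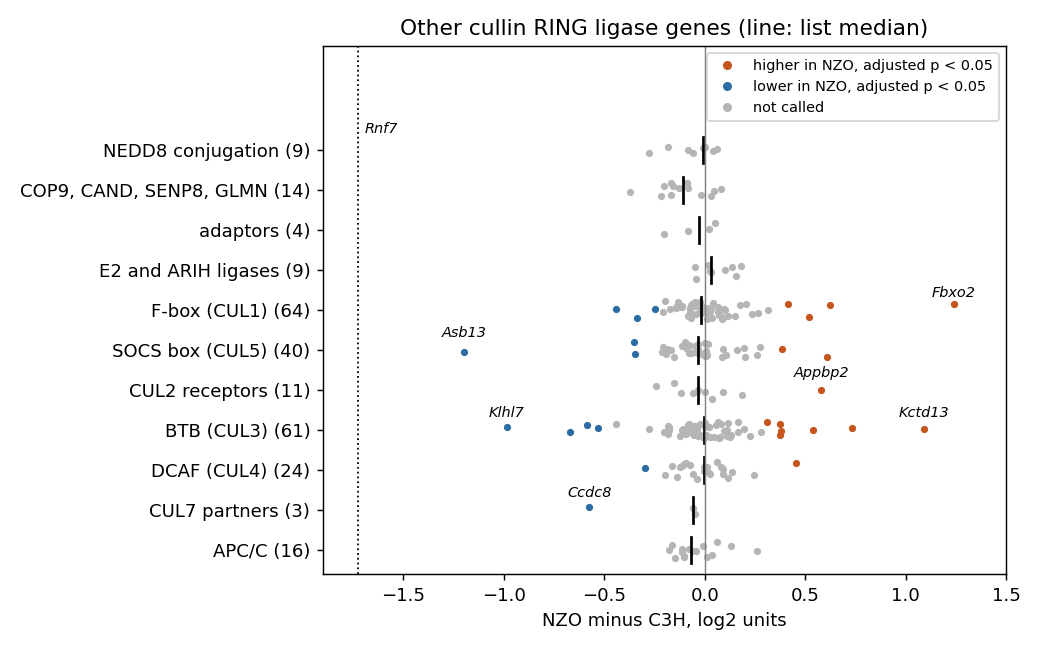
NZO minus C3H in log2 units (horizontal axis) for each measured gene of the other cullin RING ligase lists, with the number of genes in brackets. Orange and blue points passed limma at an adjusted p below 0.05, higher or lower in NZO, grey points did not, the black line is the list median and the dotted line is Rnf7. Called genes lie in the receptor and Cul7 partner lists, which hold most of the genes, from -1.20 (Asb13) to 1.24 (Fbxo2).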

How the data were processed

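The authors deposited a log2 value for every probe set of every array. Per the submitters' processing notes, these come from the RMA method of Affymetrix Expression Console. This method corrects background and is meant to equalize the distributions of the arrays, although the quartiles of C3H replicate 4 stood apart. It leaves no detection call and compresses changes at both ends of the brightness range. No build or probe set library is named in the sources used here. Of 35556 probe sets, 21789 had 1 gene symbol in the platform annotation, 1621 several and 12146 none here, and 21698 were matched by Entrez ID to RefSeq of GRCm38.p6. The brightest per gene was kept. Each gene was fitted with strain as the only term (limma 3.58.1, R 4.3.3, functions lmFit and eBayes), and the strain coefficient is NZO minus C3H. Two-sided p-values were adjusted by Benjamini-Hochberg across the 19938 genes, at a threshold of 0.05. The script was tested on simulated data. SE is that of the limma difference. Replicates are numbered by accession order, which pairs no samples, and no batch is labelled. The number of arrays limits the precision.

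The members and lists were chosen with earlier results of these data known. Named are the members, up to 4 called genes per list with the smallest p, direct partners of the RING subunits, the 3 profiles nearest to Rnf7, its 5 neighbours on either side and the genes beside it in the order of differences. Other genes are named for their values only. Alternatives were a trend or robust spread model, array weights, centring, brightness filters, the mean of probe sets, the acinar level as a covariate, and leaving out arrays. The other probe sets of Rnf7 and Rbx1 were added after seeing the data.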

Additional observations from a re-analysis of the deposited data

Results flagged for a closer look

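Of 38 groups of 5 arrays examined, 4 had an array set far apart from the rest of its strain, where chance gives about 1 group in 20. Rbx1 was lowest on C3H replicate 4, at 9.30, and so was Cul4b, at 9.26. That array was the lowest in C3H for 43.4% of all genes, so these flags are not particular to Rbx1 and Cul4b. The mean of the endothelial markers was lowest in NZO on replicate 2, at 8.90. The Rnf7 probe set 10353008, which also names Gm35144, was highest in NZO on replicate 2, at 7.51. Without C3H replicate 4 the difference of Rbx1 was -0.16 and that of Cul4b -0.14, and neither passed in limma.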

How the results depend on the processing

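The Rnf7 difference was -2.03 with the acinar level as a covariate, and -0.058 and -0.025 in the probe sets that also name Gm35144. It was -1.84 to -1.66 under every other alternative run. The trend and robust models, the brightness filters and the mean of probe sets left it at -1.73, as they could not change this estimate. That mean took only probe sets with 1 symbol, and Rnf7 has 1 of these. None of the other 9 members passed, except that 1, Cul9, passed with array weights (-0.23, limma adjusted p = 0.0438) and without NZO replicate 2. With single arrays left out, the number of members passing was thus 0 to 1, that of pathway genes 18 to 40, and that of all genes 1441 to 2701, against 27 and 2010. With array weights 57 pathway genes and 4125 of all genes passed, with the acinar covariate 4 and 214, and without NZO replicates 4 and 5 14 and 1105. The cause of these shifts was not tested. The last setting had fewer arrays and also lacked those with the highest acinar level, which cannot be told apart. The trend and robust models, centring, both brightness filters and the mean of probe sets gave 27 to 32 pathway genes. The planned exact permutation test of the members was not run, because it was to be adjusted over the members alone. No paired analysis was possible because the labels carry no replicate numbers. With 5 arrays per strain, the 95% intervals of the members reached 0.15 to 0.22 log2 units to either side, which limits the size of difference that could be seen.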

Other observations

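Fbxo6, Fbxo44 and Fbxo2 are paralogous F-box genes that follow each other directly among the protein-coding genes of chromosome 4 in GRCm38.p6. In NZO islets Fbxo44 and Fbxo2 were higher, and Fbxo6, another receptor for proteins with N-linked sugars, was 0.27 higher (SE 0.08) without passing in limma (adjusted p = 0.0561). Fbxo6 read 8.76, 8.61, 8.71, 8.74 and 8.76 in C3H and 8.83, 9.23, 8.93, 8.93 and 9.002 in NZO, so its strains did not overlap. Fbxo44 read 7.73, 7.53, 7.73, 7.59 and 7.67 in C3H and 8.34, 8.31, 8.02, 7.90 and 8.27 in NZO, also without overlap. The trio was singled out after its values were seen, and signal shared between related copies cannot be told apart on these arrays.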
